A study of Mus musculus with 18 samples.

Results

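The genes described here are the molecular chaperones and their co-chaperones: every gene whose mouse symbol belongs to the Hspa, Hsph, Hsp90, Hspb, Hspd or Hspe families, to the Dnaja, Dnajb or Dnajc families, or to the Cct subunits and Tcp1. The rule takes genes by symbol and uses no measured value, though the families were picked with earlier results of these data known. Of 14411 genes with a row in the count table of embryonic stem cells (ESCs) or in that of epiblast-like cells (EpiLCs), 72 were members, 69 of them in the ESC table, 71 in the EpiLC table and 68 in both. Families were set by the start of the symbol. By family, 12 belonged to HSP70, 1 to HSP110 (Hsph1), 3 to HSP90, and 2 to HSP60 and HSP10 (Hspd1 and Hspe1). A further 5 belonged to the small heat shock proteins, 3 to DNAJA, 11 to DNAJB, 27 to DNAJC and 8 to the cytosolic chaperonin TRiC. Hspa4 and Hspa4l, described below as nucleotide exchange factors, are thus counted with HSP70. Hspb7 had a row only in the ESC table, and Dnajb3, Hspa12b and Hspa1a only in the EpiLC table. Another 9 annotated genes matched the rule and had a row in neither table: Cct6b, Dnaja4, Dnajb7, Dnajb8, Dnajc5b, Hspa1l, Hspb2, Hspb3 and Hspb9.

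The RNA came from mouse cells in culture, 3 libraries labelled as biological replicates in each of 4 groups: ESCs with vehicle, ESCs with tetrahydrocannabinol (THC, the main psychoactive compound of cannabis), EpiLCs with vehicle and EpiLCs with THC. Per the study's methods, THC was given at 100 nM and the vehicle was ethanol. All groups were ESCs that carry the Blimp1::mVenus and Stella::ECFP reporters, grown in 2i and LIF, or EpiLCs induced from them with activin A and bFGF, and the THC-treated EpiLCs came from ESCs that had already been exposed. The study names a female and a male clone of this line and describes its main ESC data as from the female clone, without naming the clone for each library. In EpiLCs, direct exposure and carry-over of exposure at the ESC stage cannot be told apart. In bulk libraries, fewer cells of a type and less RNA per cell cannot be told apart either.

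Chaperones bind proteins that are not yet folded, or that have lost their fold, and keep them from aggregating. HSP70 proteins clamp onto exposed stretches of a client in a cycle driven by ATP. J proteins (DNAJA, DNAJB and DNAJC) bring the clients and start ATP hydrolysis, and HSP110 proteins reload the nucleotide. HSP90 acts later, on kinases, receptors and other nearly folded clients. TRiC is a double ring of Cct subunits that encloses actin, tubulin and other clients, whereas Hspd1 and its lid Hspe1 do the same inside mitochondria. Small heat shock proteins hold unfolded clients without using ATP. Heat shock factor 1 raises many of these genes when unfolded protein collects in the cytosol, and the unfolded protein response raises those of the endoplasmic reticulum. Pluripotent stem cells are known for high levels of chaperones, TRiC among them.

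The libraries held between 23427551 and 32096698 counted reads. The summed level of 8 naive pluripotency markers ran from 4255 to 4655 CPM (counts scaled to a common library size) in ESC libraries and from 311 to 367 CPM in EpiLC libraries, and that of the formative and primed markers from 156 to 177 CPM in ESCs and from 1764 to 2139 CPM in EpiLCs, so the labels and the markers went together in every library. Only 1 of 6 primitive endoderm markers had a row in either table, at no more than 3.40 CPM. Of the trophectoderm markers 3 of 6 had a row, summing to 139 to 147 CPM in ESCs and at most 35.7 CPM in EpiLCs, and the few mesoderm, neuroectoderm and fibroblast markers with a row summed to less in every library. Gene ENSMUSG00000119584 took 0.477 to 0.639% of the counts of vehicle ESC libraries, 2.46 to 3.19% of those of THC ESC libraries, and 0.418 to 3.97% of those of EpiLC libraries of either treatment. Log2 fold changes (THC over vehicle) also went with the GC content of the transcript across genes (Spearman's rho = -0.536 over 13083 genes in ESCs and -0.299 over 13696 genes in EpiLCs; genes are not independent replicates). The median GC content was 47.3% for the 72 members and 49.8% for all genes, and the part of GC content in the results was not tested beyond the offsets given with them.

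Promoter sequences are shown for some of the members whose windows hold the known stress elements, because the heat shock and unfolded protein responses act through them. RefSeq windows on GRCm38.p6, which run from 250 bases before a gene's start to 50 bases after it, were matched by symbol for 59 of the 72 members. Hspa8, Hsp90aa1, Hsp90ab1 and Hspa9 are among the members without a window, so whether they bear these elements was not examined. A run of 3 units of the heat shock element, in which GAA and TTC alternate with 2 free bases between them (read on both strands), lay in 0.603% of 32851 windows and in the windows of 4 members, Hspd1, Hspe1, Hsph1 and Dnajb6. The element of the endoplasmic reticulum stress response, CCAAT and CCACG with 9 free bases between them (read on both strands), lay in 0.119% of all windows and in those of 3 members, Hspa5, Hsp90b1 and Dnajc3. Pairs of heat shock units were common. GAANNTTC lay in 7.86% of all windows and in those of 13 members, Hspb1 and Hspb6 included, and TTCNNGAA in 8.52% of all windows and in those of 8 members; both pairs overlap the form with 3 units. In the stretches below, capitals mark the match, each stretch runs 5′ to 3′ on the gene's strand, and all of its bases lie before the gene's start in RefSeq (GENCODE starts Hspa5 upstream of its stretch). Those of Hspe1 and Hspb1 carry heat shock units and the others the endoplasmic reticulum element.
Hspe1, chr1:55088053-55088082, plus strand: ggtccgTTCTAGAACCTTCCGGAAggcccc
Hspb1, chr5:135887776-135887855, plus strand: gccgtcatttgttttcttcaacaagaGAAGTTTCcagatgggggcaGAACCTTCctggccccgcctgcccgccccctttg
Hspa5, chr2:34772019-34772048, plus strand: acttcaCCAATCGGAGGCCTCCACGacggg
Hsp90b1, chr10:86705528-86705557, minus strand: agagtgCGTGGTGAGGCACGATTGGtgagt
Dnajc3, chr14:118937796-118937875, plus strand: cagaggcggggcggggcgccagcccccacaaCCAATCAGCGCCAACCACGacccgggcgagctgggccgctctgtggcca
The Hspe1 stretch also lies in an annotated exon of Hspd1, since the gene pair is read from this region in opposite directions. A match of letters is a description of the window and not evidence that a factor binds there.

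Together the members took 3.49 to 3.60% of the counts of vehicle ESC libraries, 3.48 to 3.60% with THC, 3.38 to 3.49% in vehicle EpiLCs and 3.28 to 3.37% in EpiLCs with THC. Most of these reads came from a few genes. In vehicle ESCs, the 3 HSP90 genes took 1.47 to 1.5% of all counts, the HSP70 genes 0.769 to 0.817%, TRiC 0.683 to 0.705%, and Hspd1 with Hspe1 0.199 to 0.211%. The J protein genes took less, at most 0.0729% for DNAJA, 0.0566% for DNAJB and 0.165% for DNAJC in any vehicle ESC library. The small heat shock proteins took 0.0387 to 0.0398% in vehicle ESCs and 0.0141 to 0.0156% in vehicle EpiLCs.

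Levels of different genes were compared as RPKM, that is CPM per kilobase of the principal transcript. In vehicle ESCs, cytosolic Hsp90ab1 stood at 2736 ± 60.7 RPKM (SD, n = 3), its partner Hsp90aa1 at 2205 ± 46.4 and the constitutive HSP70 Hspa8 at 1825 ± 89.3, and the libraries of these 3 genes did not overlap in that order. Hspd1 followed at 686 ± 22.3 RPKM and Hspa9, the mitochondrial HSP70, at 503 ± 23.7. The 8 TRiC subunits, with Hspe1 among them, came next, from Cct2 at 460 ± 11.8 down to Tcp1 at 293 ± 4.45 RPKM. Every subunit has its own place in each ring, and the highest subunit transcript was 1.57 times the lowest in vehicle ESCs and 2.05 times in vehicle EpiLCs. Within this order, the libraries of Cct5, Hspe1 and Cct6a each overlapped those of the gene before in vehicle ESCs, as did those of Cct8 and Cct3 and those of Cct4 and Cct7. Of the heat-inducible genes, Hspb1 stood at 284 RPKM, Hsph1 at 97.2 and Dnajb1 at 30.7 in vehicle ESCs. Far lower was the HSP70 Hspa1b, at 1.03 RPKM in vehicle ESCs and 1.96 in vehicle EpiLCs, and its near-identical neighbour Hspa1a at 0.366 RPKM in vehicle EpiLCs. Reads that fit both of these copies are not counted by a count of unique alignments, so their levels are uncertain.

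**Figure D1:**
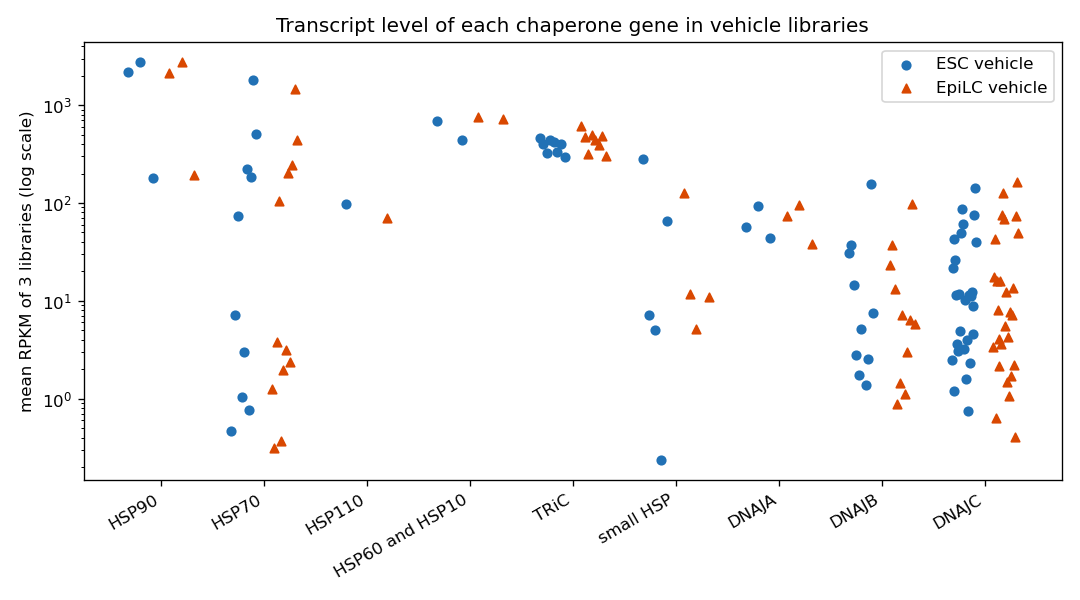
Mean RPKM of 3 vehicle libraries (log scale) for each chaperone gene, by family; circles are ESCs and triangles EpiLCs, and each point is 1 gene. HSP90 and TRiC genes lie high in both cell types, with Hsp90ab1 at 2736 RPKM in ESCs, whereas J proteins spread over several orders of magnitude.

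Between vehicle ESCs and vehicle EpiLCs, most chaperone transcripts stayed within 2-fold: 59 of the 68 genes of both tables did. The count tables of the cell types were batch-adjusted separately, so levels are set side by side with no test. At least 2-fold higher in EpiLCs were 4 members, 5.88%, against 11.2% of the 12410 genes of both tables, and at least 2-fold lower were 5 members, 7.35%, against 10.5%. TRiC differed little, with ratios from 0.977 for Cct4 to 1.33 for Cct2 and 7 of 8 subunits higher in EpiLCs. Hspe1 was 1.65 times as high in EpiLCs as in ESCs and its partner Hspd1 1.10 times. Hsp90ab1 stood at a ratio of 1.00 and Hsp90aa1 at 0.973.

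The members with the largest ratios were genes of low level. Hspa4l, an HSP110-like nucleotide exchange factor (chr3:40744495-40796103), read 7.95, 7.05 and 6.54 CPM in vehicle ESCs and 21.9, 22.8 and 23.4 CPM in vehicle EpiLCs, a ratio of 3.16. Hspa12a, a distant relative of HSP70, had a ratio of 2.68. The J proteins Dnajb5 and Dnajb4 had ratios of 2.52 and 2.17, and Hspa1b one of 1.90. In none of these 5 did the vehicle libraries of the cell types overlap, but they were picked by these same ratios. The share of all genes without such overlap is not given here.

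In the other direction the ratios were larger. Dnajc6, auxilin, which uncoats clathrin vesicles with Hspa8, read 45.5, 50.2 and 44.0 CPM in vehicle ESCs and 2.15, 2.52 and 1.86 CPM in vehicle EpiLCs, 21.4 times higher in ESCs. Hspb8, which works with Bag3 in chaperone-assisted autophagy, read 117, 117 and 122 CPM in ESCs and 18.9, 18.9 and 21.9 CPM in EpiLCs, a ratio of 5.97. Bag3 itself, no member, was 1.27 times higher in ESCs. Dnajb13, a protein of the sperm axoneme, was 3.19 times higher in ESCs, Hspb1 (HSP27) 2.23 times and Dnajc5g 2.07 times. With THC, 4 members were at least 2-fold higher in EpiLCs and 6 at least 2-fold lower.

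**Figure D2:**
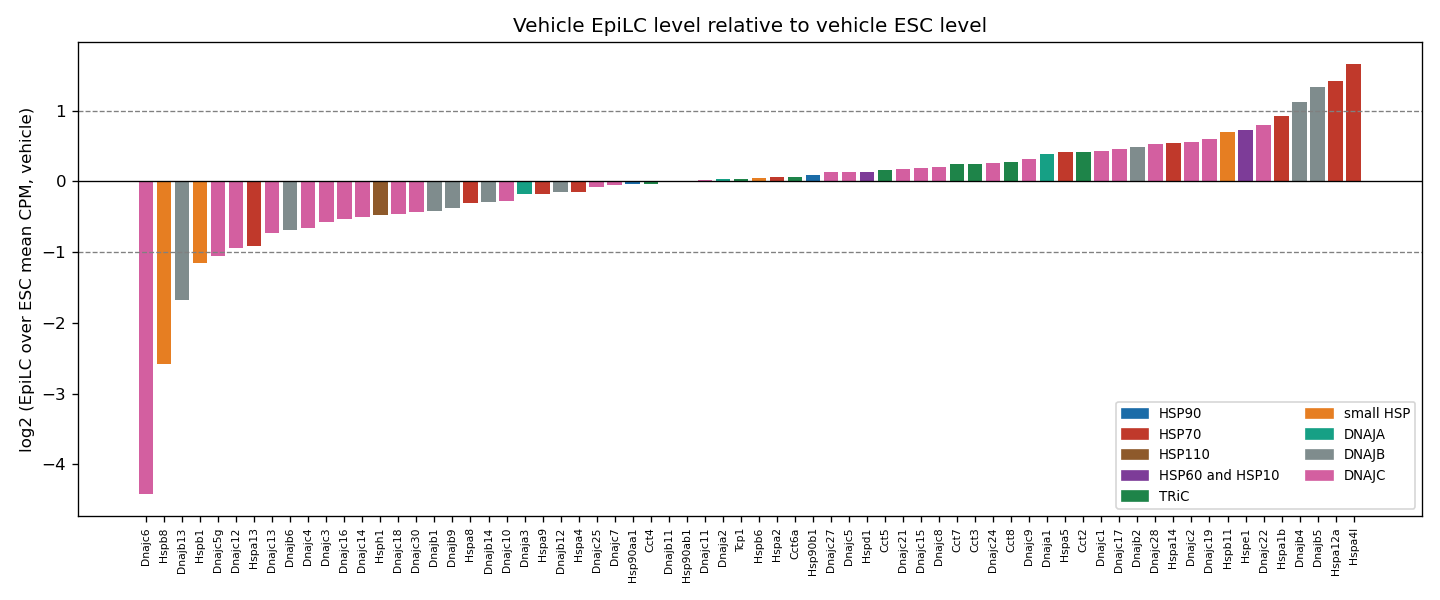
Log2 ratio of the mean CPM of 3 vehicle EpiLC libraries to that of 3 vehicle ESC libraries, 1 bar per gene of both tables, coloured by family; dashed lines mark 2-fold. Dnajc6 and Hspb8 lie farthest below 0 and Hspa4l and Hspa12a farthest above, and TRiC bars stay close to 0.

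To find how THC moved chaperone transcripts in ESCs, the 3 THC libraries were compared with the 3 vehicle libraries in edgeR's quasi-likelihood test over all 13104 genes, with Benjamini-Hochberg adjustment. Of 69 members, 1 rose and 2 fell at an adjusted p of at most 0.05: the J protein Dnaja2 rose, and the small heat shock proteins Hspb1 and Hspb6 fell. Over all genes, 6.91% passed. At an unadjusted p under 0.05 stood 21 members, 15 higher and 6 lower, against 28.7% of all genes, and 43 members had a log2 fold change above 0, against 51.1% of all genes. The median over the members was 0.03 on the log2 scale and that over all genes 0.0041. With GC and length offsets 32 of the 69 were above 0, as were 6806 of the 13104 genes, and the median over the members turned to -0.0037. With a term for the replicate number in the fit (a replicate block), 0 of the 69 members and 5 of the 13104 genes passed.

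Hspb1 (ENSMUSG00000004951, chr5:135887919-135889563), which holds unfolded clients and binds actin, read 257, 251 and 261 CPM with vehicle and 226, 231 and 221 CPM with THC. The groups did not overlap, and the gene fell by 0.16 ± 0.03 (SE) on the log2 scale (edgeR adjusted p = 0.0331). Its transcript had the highest GC content of all members, 61.7%, and with GC and length offsets in the fit the change was -0.02 (edgeR adjusted p = 0.709). Hspb6 (HSP20; chr7:30552178-30555443), a gene of low level in these cells, read 6.91, 7.12 and 6.54 CPM with vehicle and 5.20, 5.05 and 5.55 CPM with THC. It fell by 0.37 ± 0.07 (edgeR adjusted p = 0.0380), and stood at -0.30 with the offsets (edgeR adjusted p = 0.139). Dnaja2 (chr8:85537633-85555344), a main cytosolic J protein of Hspa8, read 277, 269 and 278 CPM with vehicle and 297, 306 and 295 CPM with THC, again with no overlap. It rose by 0.14 ± 0.03 (edgeR adjusted p = 0.0404), and stood at 0.03 with the offsets (edgeR adjusted p = 0.566). Each of these 3 calls was lost when any 1 of the 6 ESC libraries was left out, with 0 members called in each case and edgeR adjusted p-values between 0.0744 and 0.145. The fold changes then stayed between -0.18 and -0.15 for Hspb1, -0.41 and -0.33 for Hspb6, and 0.12 and 0.15 for Dnaja2. The number of all genes called in these fits is not given here, so the loss cannot be set against the whole table. DESeq2 called 5 members (5.79% of all genes): Hspb1 and Dnaja2 again, and Hspd1, Dnajb9 and Dnajc5.

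**Figure D3:**
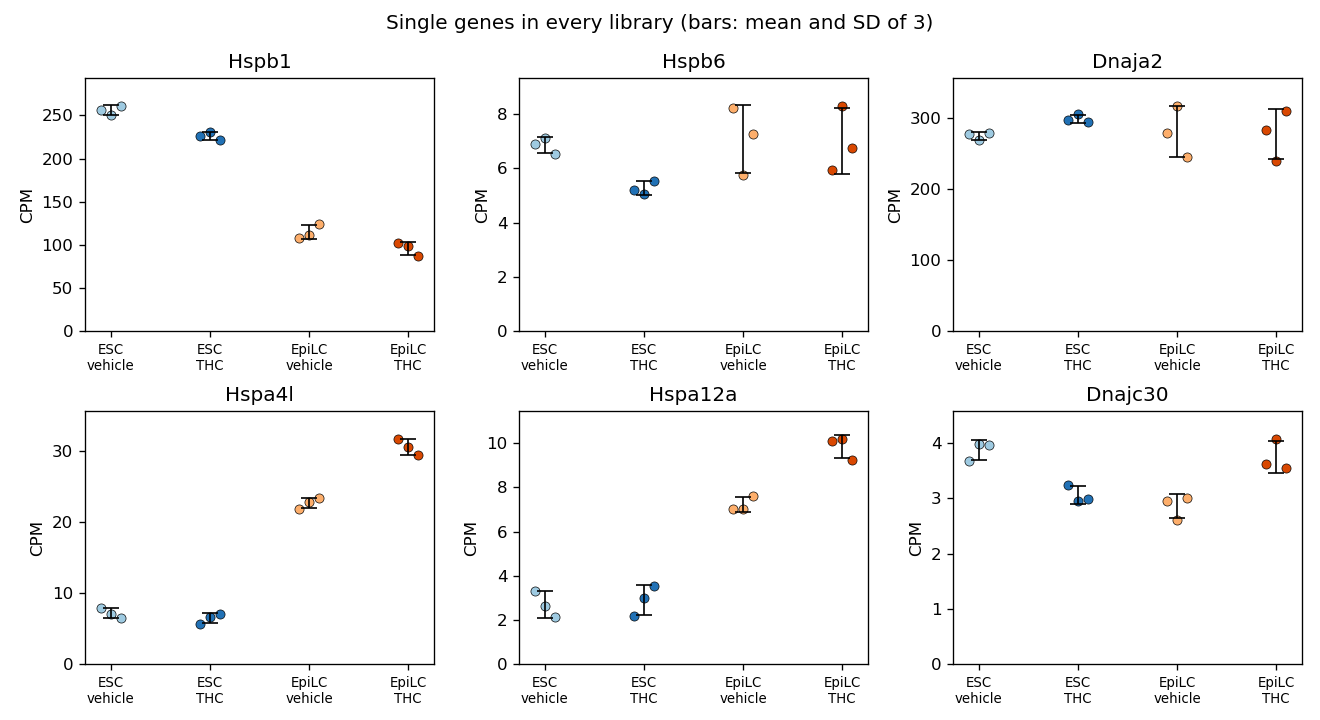
CPM of 6 chaperone genes in each of the 12 libraries (points), with the mean and SD of 3 libraries per group. Hspb1 and Hspb6 are lower and Dnaja2 higher with THC in ESCs without overlap of the libraries, whereas Hspa4l and Hspa12a stand apart with THC in EpiLCs.

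All 5 small heat shock proteins had log2 fold changes below 0 in ESCs, with a median of -0.08 (-0.04 with GC and length offsets) and a lowest value of -0.37. Hspb8 read 117, 117 and 122 CPM with vehicle and 113, 113 and 108 CPM with THC, which is -0.08 ± 0.03 (edgeR adjusted p = 0.160). The family also includes Hspb11, which is a part of the intraflagellar transport complex and not a chaperone of the usual kind, at -0.05. Hspb7, at 0.497 to 0.778 CPM over the ESC libraries, stood at -0.00093, and at 0.11 with GC and length offsets.

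Among the HSP70 genes in ESCs, 7 of 10 were above 0 and none passed the test. Hspa8 read 4294, 4205 and 4612 CPM with vehicle and 4694, 4789 and 4355 CPM with THC, at 0.09 ± 0.05 (0.05 with the offsets). The testis-enriched Hspa2 stood lowest, at -0.30 ± 0.07 (edgeR adjusted p = 0.0513), with libraries of 7.67, 7.16 and 7.89 CPM against 5.95, 6.41 and 5.79 CPM. Hspa13, of the endoplasmic reticulum, was highest at 0.17 ± 0.06 (edgeR adjusted p = 0.138), and at 0.04 with the offsets. Hspa4, another nucleotide exchange factor, stood at 0.08 ± 0.03 (0.05 with the offsets), and Hsph1, the HSP110, read 371, 367 and 370 CPM against 380, 384 and 381 CPM, a small difference of 0.06 ± 0.02 (edgeR adjusted p = 0.13) without overlap. The 3 HSP90 genes lay between 0.01 and 0.08, with a lowest adjusted p of 0.269 in edgeR, and with the offsets Hsp90aa1 and Hsp90b1 lay below 0.

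The highest fold changes in ESCs belonged to J proteins, as did the lowest after that of Hspb6. Dnajb9, a partner of Hspa5 that the unfolded protein response raises, read 18.1, 20.0 and 17.7 CPM with vehicle and 23.5, 21.2 and 23.96 CPM with THC, at 0.31 ± 0.07 (edgeR adjusted p = 0.0506), and at 0.18 with the offsets. Other genes of that response did not stand with it: Hspa5 (BiP) was at 0.04 ± 0.08, Hsp90b1 (GRP94) at 0.08 ± 0.04 and Dnajc3 at -0.06 ± 0.09. Dnajc12 stood at 0.38 ± 0.16, Dnajb4 at 0.27 ± 0.09 and Dnajc5, the cysteine string protein of secretory vesicles, at 0.23 ± 0.07. Lowest were Dnajb5 at -0.36 ± 0.17 and the mitochondrial Dnajc30 at -0.32 ± 0.08. Heat-inducible Dnajb1 was at 0.06 ± 0.08, Hspa1b at 0.13 ± 0.18 and Bag3 at -0.08 ± 0.05. None of these passed the test. The J proteins Dnaja1 (0.12 ± 0.04), Dnajb6 (0.08 ± 0.02) and Dnajc13 (0.08 ± 0.04) did not either, and stood at 0.02, 0.11 and 0.03 with the offsets. The groups did not overlap in 19 of 69 members, or 27.5%, against 33.0% of all genes in ESCs.

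In EpiLCs, with 13717 genes tested in the same way, no member passed edgeR's adjusted p of 0.05, and no gene of the table did (0.0%). At an unadjusted p under 0.05 stood 15 of 71 members, 7 higher and 8 lower, against 15.1% of all genes. DESeq2 called 1 member, Hspa4l, against 0.634% of all genes. Only 26 members had a log2 fold change above 0, against 50.7% of all genes, with a median of -0.04 over the members and of 0.0030 over all genes. The groups did not overlap in 22 members, 7 higher with THC and 15 lower, which is 31.0%, against 21.8% of all genes.

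The 2 highest fold changes of EpiLCs belonged to distant HSP70 relatives that were also among the members higher in EpiLCs than in ESCs. Hspa4l read 21.9, 22.8 and 23.4 CPM with vehicle and 31.8, 30.5 and 29.4 CPM with THC, at 0.43 ± 0.06 (edgeR adjusted p = 0.144). Hspa12a (chr19:58795750-58943654) read 7.04, 7.02 and 7.60 CPM against 10.1, 10.2 and 9.26 CPM, at 0.45 ± 0.08 (edgeR adjusted p = 0.144). Both stood apart between the groups, and the adjusted p of 0.144 was the lowest that any gene of this comparison reached. Hspa4l had the lowest GC content of all members, 39.5%, and was at 0.27 with the offsets. Dnajc30 (0.39 ± 0.11), Dnajc3 (0.27 ± 0.11) and Dnajc6 (0.24 ± 0.17) followed.

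On the lower side in EpiLCs stood Dnajb13 at -0.56 ± 0.20, Dnajc17 at -0.26 ± 0.11 (-0.16 with the offsets), Dnajb9 at -0.26 ± 0.17 and Hspb1 at -0.26 ± 0.09 (-0.15 with the offsets). Hspb1 read 108, 112 and 125 CPM with vehicle and 102, 98.9 and 87.2 CPM with THC, without overlap, and was the only one of the 3 genes called in ESCs to do so: Hspb6 was at -0.02 ± 0.18 and Dnaja2 at -0.02 ± 0.13 in EpiLCs. The lowest value was that of Dnajc12, named here after its values were seen, which read 1.91, 2.17 and 1.64 CPM against 1.22, 0.989 and 1.38 CPM, at -0.67 ± 0.18. Among heat-inducible genes, Dnajb1 read 71.5, 70.1 and 65.7 CPM against 58.8, 60.2 and 62.9 CPM, at -0.19 ± 0.06 (edgeR adjusted p = 0.239), and at -0.12 with the offsets. Hspa1a, of whose exonic length 19.0% is shared with another gene, was at -0.49 ± 0.15 and at most 1.18 CPM, Hspa1b at -0.08 ± 0.18, Hsph1 at -0.10 ± 0.17 and Bag3 at -0.03 ± 0.12. In the endoplasmic reticulum, Hspa5 was at 0.03 ± 0.09 and Hsp90b1 at 0.16 ± 0.10.

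The TRiC subunits lay on the same side of 0 together, and on opposite sides in ESCs and EpiLCs, with none past the test in either. In ESCs all 8 subunits had fold changes above 0, from 0.0040 for Cct5 to 0.10 for Cct6a, with a median of 0.07, though Cct3 and Cct5 were below 0 when all 12 libraries were scaled together and only 4 of 8 were above 0 with GC and length offsets (median 0.0043). In EpiLCs all 8 were below 0, from -0.10 for Cct4 to -0.25 for Cct3, with a median of -0.19, the same with the offsets and with 0 of 8 above 0. Cct6a, on chr5:129786998-129846371, read 1028, 1029 and 1045 CPM in vehicle ESCs and 1105, 1103 and 1086 CPM with THC, without overlap (0.10 ± 0.02, edgeR adjusted p = 0.0561). In EpiLCs the same gene read 1047, 1253 and 948 CPM with vehicle and 1016, 805 and 1088 CPM with THC, overlapping (-0.16 ± 0.15, edgeR adjusted p = 0.666).

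The spread between EpiLC libraries was wide for most subunits. Cct3 (chr3:88297116-88321767) read 883, 1029 and 890 CPM with vehicle against 839, 703 and 821 CPM with THC, where the groups did not overlap, at -0.25 ± 0.10 (edgeR adjusted p = 0.337). Cct8 read 1133, 1221 and 1097 CPM against 1042, 960 and 1059 CPM, at -0.17 ± 0.08, and Cct5 862, 1045 and 846 CPM against 835, 660 and 836 CPM, at -0.24 ± 0.13. In both genes the groups stood apart. Tcp1, the subunit that gave the complex its name, ranged from 612 to 895 CPM with vehicle and from 467 to 732 CPM with THC. In all 8 subunits the second replicate was the highest of the vehicle libraries and the second replicate the lowest of the THC libraries. Without the second vehicle replicate the TRiC median in EpiLCs was -0.10 (without the second THC replicate, -0.12). These libraries deviated from their group means in opposite directions across genes (r = -0.979), so leaving out either one keeps its opposite. No fit without both was made. Outside the second replicates, Tcp1 read 692 and 612 CPM with vehicle and 673 and 732 CPM with THC, whereas Cct3 stayed lower with THC. How far the TRiC values rest on the second replicates was not tested.

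**Figure D4:**
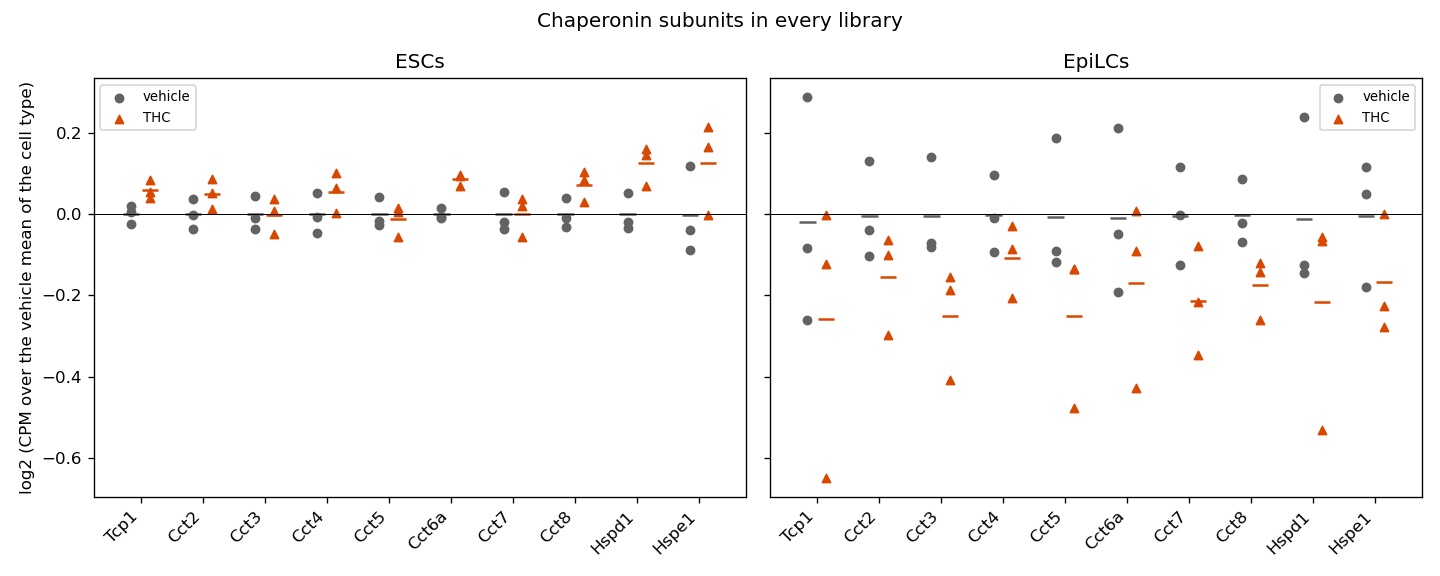
Log2 ratio of each library's CPM to the vehicle mean of the same cell type for the 8 TRiC subunits and for Hspd1 and Hspe1; circles are vehicle, triangles THC and short lines the mean of 3 libraries. CPM are scaled over all 12 libraries, so the THC means of Cct3 and Cct5 lie slightly below 0 in ESCs here; in EpiLCs the THC means of all 10 genes lie below the vehicle means, with overlap of the libraries in most.

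The mitochondrial chaperonin pair lay on the same sides. Hspd1 (chr1:55077835-55088243) read 1639, 1624 and 1724 CPM in vehicle ESCs and 1840, 1857 and 1746 CPM with THC, at 0.14 ± 0.04 (edgeR adjusted p = 0.0666) and without overlap. Its neighbour Hspe1 read 321, 333 and 371 CPM against 396, 383 and 341 CPM, also at 0.14 ± 0.07 (0.07 with the offsets), with overlapping groups. In EpiLCs Hspd1 stood at -0.20 ± 0.17 and Hspe1 at -0.16 ± 0.11, both with overlapping groups. The 4 members with the full heat shock element in their windows, this pair with Hsph1 and Dnajb6, were above 0 in ESCs (median 0.11) and below 0 in EpiLCs (median -0.13). In EpiLCs Dnajb6 was at only -0.0084 ± 0.05, and with 1 library left out it reached 0.0012 and Hsph1 0.0452. Members with GAANNTTC were above 0 in 9 of 12 cases in ESCs and 2 of 13 in EpiLCs. With TTCNNGAA it was 8 of 8 and 1 of 8. Over all members 62.3% were above 0 in ESCs and 36.6% in EpiLCs, and over all genes 51.1% and 50.7%. The 4 members with the full element are in both of these sets, so the counts are not separate. Counts with GC and length offsets are not given here, and none of these counts was tested. Of the 3 with the endoplasmic reticulum element 2 were above 0 in ESCs (median 0.04) and 3 in EpiLCs (median 0.16), where Hspa5 turned to -0.05 without the first THC replicate and to -0.04 without the first vehicle replicate.

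Whether THC acted differently in the cell types was tested as the difference of its log2 fold changes (EpiLCs minus ESCs) in 1 fit of all 12 libraries over 12410 genes. This fit takes 1 estimate of a gene's spread for all groups, although replicates differed more in EpiLCs. The squared difference between 2 replicates, relative to counting noise, averaged 38.5 to 92.1 per gene in EpiLCs and 4.60 to 7.49 in ESCs. No member passed, against 0.0322% of all genes, and 12 of 68 had an unadjusted p under 0.05, against 13.7% of all genes. The tests for single genes were lowest for Dnajc30, at 0.73 ± 0.15 (edgeR adjusted p = 0.0803), Hspa4l, at 0.58 ± 0.13 (edgeR adjusted p = 0.0894), and Dnajc12, at -1.04 ± 0.25 (edgeR adjusted p = 0.118). Dnajc30 (chr5:135064202-135065862), a J protein of the mitochondrial inner membrane, read 3.67, 3.98 and 3.96 CPM in vehicle ESCs and 3.24, 2.96 and 2.98 CPM with THC. In EpiLCs it read 2.95, 2.61 and 3.01 CPM with vehicle and 3.61, 4.08 and 3.54 CPM with THC, so the groups stood apart in opposite directions. Exons of other genes overlap 26.2% of its exonic length, and the reads were counted without strand. With GC and length offsets Dnajc30 passed (edgeR adjusted p = 0.0497), among 16 of the 12410 genes. In DESeq2 Hspa4l did (adjusted p = 0.0224), among 133 of them. With the replicate block 0 genes passed, and Dnajc30 and Hspa4l each had an edgeR adjusted p of 0.999.

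All 8 TRiC subunits had a negative difference between the cell types, from -0.16 for Cct4 to -0.29 for Tcp1 with a median of -0.24, and the lowest adjusted p among them was 0.258, for Cct8. Hspd1 stood at -0.33 ± 0.18 and Hspe1 at -0.29 ± 0.14. Dnaja1, a cytosolic J protein like Dnaja2, was at -0.28 ± 0.09 (edgeR adjusted p = 0.220). Of the 68 members of both tables, 31, or 45.6%, were above 0 in ESCs and below 0 in EpiLCs, against 20.9% of 12410 genes; 12 were above 0 only in EpiLCs, 12 above 0 in both and 13 below 0 in both. With GC and length offsets 24 of the 68 members, or 35.3%, were above 0 in ESCs and below 0 in EpiLCs, against 25.0% of 12410 genes. Members of one complex share their regulation and are not independent of each other, and none of these counts was tested.

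**Figure D5:**
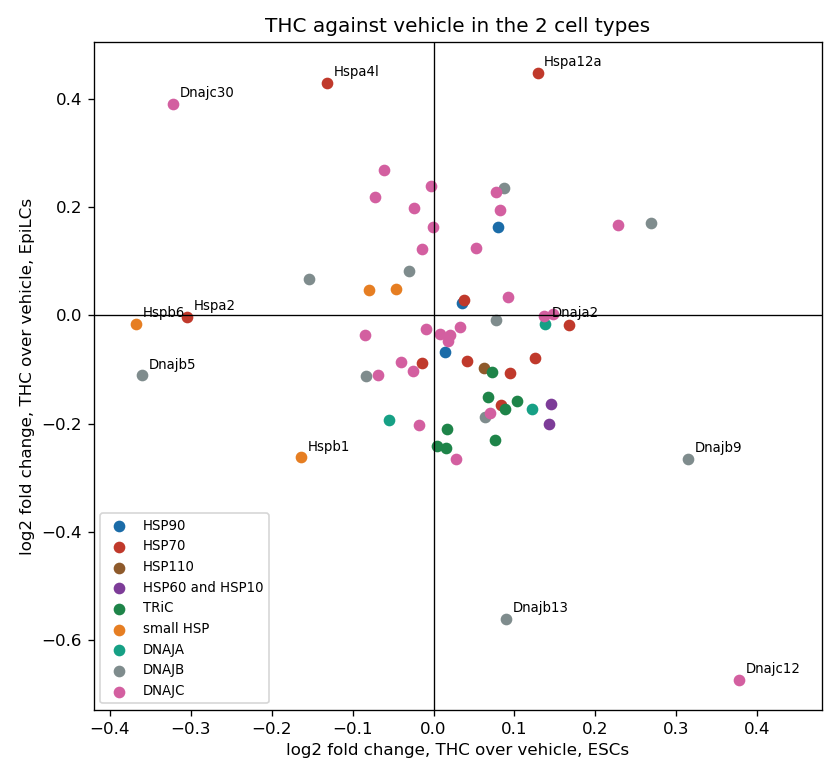
Log2 fold change of THC over vehicle in ESCs (x axis) and EpiLCs (y axis), 1 point for each of the 68 chaperone genes of both tables, coloured by family. The TRiC points lie to the right of and below the origin, above 0 in ESCs and below 0 in EpiLCs, and Dnajc12 and Dnajc30 lie in opposite corners.

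The genes that work with the chaperones were taken from lists fixed by function. Every call in these lists was made in ESCs, where 6.91% of all genes were called, and with GC and length offsets none of them was kept. Of 32 co-chaperones of HSP70 and HSP90, 4 rose and 2 fell in ESCs, with a median of 0.01. Ptges3 (p23), which stabilises the closed state of HSP90, rose from 816 ± 21.9 to 979 ± 25.8 CPM (SD, n = 3), at 0.28 ± 0.03 (edgeR adjusted p = 0.0278), and at 0.18 with the offsets. Cacybp rose by a log2 of 0.24 ± 0.02 (0.09 with the offsets) and the cyclophilin Ppid by 0.18 ± 0.03 (0.07 with the offsets), whereas Stub1 (CHIP), the ubiquitin ligase that marks HSP70 and HSP90 clients, fell from 26.8 ± 0.748 to 20.9 ± 0.616 CPM, at -0.34 ± 0.04 (edgeR adjusted p = 0.0278), and stood at -0.18 with the offsets. In EpiLCs none of the 32 passed, 22 were below 0, and the lowest p belonged to Hspbp1, at -0.31 ± 0.05, and Cdc37, the kinase adaptor of HSP90, at -0.30 ± 0.06.

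Of 17 prefoldin subunits and TRiC cofactors, which hand actin and tubulin to TRiC or take them from it, 3 rose and none fell in ESCs: Pdcl (0.22 ± 0.03), Tbce (0.26 ± 0.05) and the prefoldin subunit Vbp1 (0.24 ± 0.05). With the offsets Vbp1 stood at -0.0038. The median was 0.07 in ESCs (0.0066 with the offsets) and -0.10 in EpiLCs (-0.06 with the offsets), where none passed and 13 were below 0. Of 11 regulators and targets of heat shock factor 1 outside the members, Cacybp and Chordc1 (0.18 ± 0.03, and -0.03 with the offsets) rose in ESCs and none passed in EpiLCs. Hsf1 itself stood at -0.11 ± 0.05 in ESCs and -0.20 ± 0.06 in EpiLCs. Ahsa1, which speeds HSP90's ATPase, was at -0.24 ± 0.07 in EpiLCs.

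Of 17 genes of endoplasmic reticulum folding and the unfolded protein response that are not members, the lectin chaperone Canx rose in ESCs (0.16 ± 0.03, edgeR adjusted p = 0.0378, and 0.06 with the offsets) and none fell. Xbp1 was at -0.10 ± 0.03 and Ddit3 (CHOP) at -0.41 ± 0.13, short of the test. In EpiLCs none passed and 13 of 17 were below 0. Of 11 genes of mitochondrial folding and proteolysis none passed in either cell type. In EpiLCs all 11 were below 0, with a median of -0.15 and Htra2 lowest at -0.39 ± 0.11, and in ESCs 9 of 11 were below 0, with a median of -0.03.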

How the data were processed

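RNA-seq read counts per gene were analysed for 12 libraries, 3 in each of 4 groups mapped from the library titles. A further 6 libraries of primordial germ cell-like cells are named in the labels and were not analysed here. Per the labels and the study's methods, the authors made poly(A) libraries with either of 2 kits, called reads with bcl2fastq 2.19.1.403, kept STAR alignments to 1 location only and counted them over genes with HTSeq without strand. They removed genes of low count, adjusted the counts for batch with ComBat-seq, separately for each cell type, and deposited the adjusted whole-number counts. The genome is named as both mm10 and GRCm39, and which library came from which kit or batch is not given in the sources used here, so no value within a batch could be made. Adjustment for batch uses the libraries jointly, so adjusted libraries need not be independent, whereas every p-value from a fit without the replicate block treats them as such.

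Tests were made with edgeR 4.0.16 (R 4.3.3; quasi-likelihood, TMM scaling, genes with a total count over 10) over all genes of a table. A gene was called at a Benjamini-Hochberg adjusted p of at most 0.05. Errors of log2 fold changes are standard errors. CPM were scaled by TMM over all 12 libraries and RPKM divide them by the length of the principal transcript in GENCODE M21 (GRCm38), which also gave coordinates, exon overlap and GC content (14388 of 14411 genes). Since fold changes were scaled within a cell type, a gene with nearly equal CPM can have a fold change of the other sign. The scripts were tested on simulated data. Alternatives were RLE size factors, other count filters, a replicate block, GC and length offsets (splines with 5 degrees of freedom), DESeq2 1.42.0, 1 fit of all 12 libraries, and leaving out each library. Between 3 and 3 libraries an exact permutation test cannot go below 0.1, so none was used.

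The members and gene lists were chosen with earlier results of these data known. Named were the members called, the 5 highest and 5 lowest fold changes in each cell type among members with a mean of at least 50 counts, all TRiC subunits, the highest member of each family, the 5 highest and 5 lowest ratios of EpiLCs to ESCs, 9 genes of the heat shock and unfolded protein responses, and at most 4 genes per list with the lowest p.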

Additional observations from a re-analysis of the deposited data

How the results depend on the processing

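RLE size factors and other count filters moved none of the main counts by over 1.5 times. In ESCs, members called numbered 0 with the replicate block, 0 with GC and length offsets, 0 with both, 0 in the fit of all 12 libraries, 5 in DESeq2 and 0 to 0 when 1 library was left out, and those at an unadjusted p under 0.05 numbered 5, 11, 1 and 9 in the first 4 of these. Over all 13104 genes the calls went from 906 to 5 with the block and 7 with the offsets, and an unadjusted p under 0.05 from 3761 to 1454 and 2494. All-gene numbers are not given here for the block with offsets, the fit of all 12 libraries or the fits without 1 library. With the block the edgeR adjusted p-values of Hspb1, Hspb6 and Dnaja2 were 0.422 to 0.444, and no call in the lists of pathway genes was kept. In EpiLCs, DESeq2 called 1 and the fit of all 12 libraries 1 (both Hspa4l). The members at an unadjusted p under 0.05 were 2 with the block, against 291 of all 13717 genes. They were 1 with the block and offsets, 8 in DESeq2, 23 in the fit of all 12 libraries and 6 to 9 without 1 library. For these last fits the share of all genes is not given here, so their counts are no result about the members. For the difference between the cell types, the offsets called 1 member (Dnajc30) and DESeq2 1 (Hspa4l), against 16 and 133 of all 12410 genes. With the block 4 members had an unadjusted p under 0.05, against 328 of all 12410 genes, and with the block and offsets 3 did. Same-numbered vehicle and THC libraries deviated from their group means in opposite directions across genes (r = -0.987 to -0.977 in ESCs and -0.985 to -0.979 in EpiLCs), while libraries of different numbers deviated together (r = 0.223 to 0.695). The numbers thus tie the adjusted libraries by opposite deviations, while the fits without the block treat the libraries as independent. The block compares libraries within a number, and its standard errors in ESCs were wider, at 0.066 against 0.032 for Cct2 and 0.065 against 0.025 for Cct6a. Every standard error and edgeR p-value of the Results not given for an alternative comes from fits without the block, so it can be too small. The offsets moved the ESC family medians of HSP110 from 0.06 to 0.0458, HSP90 from 0.04 to -0.0265, DNAJA from 0.12 to 0.0182, TRiC from 0.07 to 0.0043, HSP70 from 0.06 to 0.0252, HSP60 and HSP10 from 0.14 to 0.0808, the small heat shock proteins from -0.08 to -0.0404 and DNAJC from 0.0079 to -0.0175, and left DNAJB at 0.07. The cause of these shifts was not tested.

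Single genes that turned direction were in ESCs with offsets (with the block too in brackets) Cct3 at -0.0129 (-0.0128), Cct7 at -0.0340 (-0.0339), Cct8 at -0.00261 (-0.00253), Dnajc2 at -0.0139 (-0.0139), Dnajc5g at -0.0124 (-0.0114), Hsp90aa1 at -0.0455 (-0.0454), Hsp90b1 at -0.0265 (-0.0264), Hspa5 at -0.0167 (-0.0167) and Tcp1 at -0.0415 (-0.0414), and in the fit of all 12 libraries Cct3 at -0.000469 and Cct5 at -0.0121. In EpiLCs they were Dnajc2 at -0.0283 (-0.0269), Hsp90aa1 at -0.00437 (-0.00363), Hspa1b at 0.0268 (0.0268), Hspa2 at 0.0782 (0.0789) and Hspb6 at 0.0810 (0.0818), and for the difference Dnajc2 at 0.00905 (0.0100). Leaving out 1 library turned, in ESCs, Cct3 (-0.00185 to 0.0358), Cct5 (-0.00795 to 0.0232), Cct7 (-0.000149 to 0.0424), Dnajb1 (-0.0039 to 0.114), Dnajc17 (-0.0219 to 0.0737), Dnajc3 (-0.117 to 0.0126), Dnajc5g (-0.00596 to 0.168), Dnajc6 (-0.0473 to 0.0555), Hspa12a (-0.0247 to 0.323), Hspa1b (-0.0254 to 0.267) and Hspa5 (-0.0293 to 0.0762). In EpiLCs it turned Dnaja2 (-0.111 to 0.0845), Dnajb6 (-0.0242 to 0.00122), Dnajc2 (-0.118 to 0.113), Hsp90aa1 (-0.0707 to 0.0933), Hspa13 (-0.102 to 0.0693), Hspa1b (-0.184 to 0.0733), Hspa2 (-0.0633 to 0.0417), Hspa5 (-0.0498 to 0.0797), Hspb6 (-0.168 to 0.105), Hspb8 (-0.00405 to 0.125) and Hsph1 (-0.199 to 0.0452), and for the difference Dnajc2 (-0.182 to 0.0315), Dnajc5 (-0.0911 to 0.0108), Dnajc5g (-0.0259 to 0.144), Hsp90aa1 (-0.0783 to 0.0697) and Hspa5 (-0.0601 to 0.0752). With 3 libraries a group, some members at a few CPM had wide standard errors, as Hspa12a (0.22), Hspb7 (0.21) and Hspa1b (0.18) in ESCs. Others had narrower ones, as Dnajc30 with 0.08 in ESCs and 0.11 in EpiLCs. In EpiLCs some abundant members had wide ones too, as Tcp1 (0.21) and Hspd1 (0.17).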
